A study of Homo sapiens with 10 samples.

Results

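The E2-2 and HEB transcriptomes of Kasumi-1 cells were compared directly, gene by gene, over all 13891 genes of the 50868 in the deposited table that held 30 or more reads in the E2-2 and HEB libraries together. Kasumi-1 is an established human myeloid leukemia line that carries the 8;21 translocation, which joins RUNX1 to RUNX1T1 and makes the fusion protein AML1-ETO. Cells overexpressing HA-tagged E2-2 (gene TCF4) or HA-tagged HEB (gene TCF12) after retroviral transduction were sorted as GFP+ and their RNA was taken 4 days after infection, at 4-5 passages per the labels. The 2 other RNA libraries, from cells with HA-tagged E2A (gene TCF3) and from cells with the MIGR1 control vector, are used here only to show where a level stood. All 4 groups share the line, the translocation and the GFP sort, and each is 1 RNA library. The labels give neither the expression level of the transduced proteins nor a separate culture per group, and the HA ChIP libraries were not analysed here.

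E proteins are basic helix-loop-helix transcription factors that pair with each other or with tissue-restricted partners and bind short DNA motifs called E-boxes. They are known for directing B and T lymphocyte development, and E2-2 for maintaining plasmacytoid dendritic cells, the interferon-producing cells of the blood. ID proteins lack a DNA-binding region and hold E proteins off DNA. In t(8;21) leukemia, AML1-ETO works in a protein complex that includes E proteins, and the series addresses the different roles of E2-2, E2A and HEB in this leukemia.

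Levels are given as CPM, reads per 1000000 after TMM scaling, which adjusts each library for its composition. A fold is the ratio of scaled reads between E2-2 and HEB, and the range after it is a 95% exact counting interval. These intervals leave out differences between cultures, and since each group is 1 library, no replicate check and no p-value can be given. Genes were called at a fold of 2 or more with an interval excluding 1. The calls compare these libraries, not the conditions. Folds marked "at least" were computed against a floor of 3 reads, because the other library had 0. Pathway membership is that of the KEGG and GO terms in the deposited table, where a gene may carry many terms, so pathway counts overlap.

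The HEB library held 16791922 counted reads and the E2-2 library 14816708. The transduced genes matched the labels. TCF4 (ENSG00000196628, chromosome 18, 55222331 to 55664787) had 4 reads in vector, 1 in HEB, 4 in E2A and 12484 in E2-2. TCF12 (ENSG00000140262, chromosome 15, 56918623 to 57299281) stood at 165 CPM in vector, 836 in HEB, 168 in E2A and 145 in E2-2, 5.75-fold (5.50 to 6.02) higher in HEB than in E2-2. TCF3 was 1.27-fold (1.21 to 1.33) higher in HEB, below the threshold. Reads of the transduced and the resident copy of a gene are counted together. The HEB cells thus started from a resident HEB level that the vector cells shared, whereas TCF4 RNA was nearly absent before transduction.

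Of the 13891 genes, 846 were called higher in E2-2 (6.09%) and 218 higher in HEB (1.57%), together 7.66%. The median log2 fold of E2-2 over HEB was -0.03, and 50.2% of genes differed by less than 1.2-fold and 80.2% by less than 1.5-fold. Genes higher in E2-2 also differed more: 229 of them were at least 4-fold higher and 25 at least 16-fold, against 10 and 0 of those higher in HEB. The calls lay mostly among genes of low level. Of 4664 genes whose mean over the E2-2 and HEB libraries was below 10 CPM, 12.0% were called higher in E2-2 and 3.30% in HEB, and of 2509 genes at 100 CPM or more the shares were 1.36% and 0.478%. At the edge of the read minimum, the 71 genes with exactly 30 reads had log2 folds from -1.59 to 4.98, and the 95 genes with 29 reads, which were left out, from -1.53 to 3.24.

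**Figure D1:**
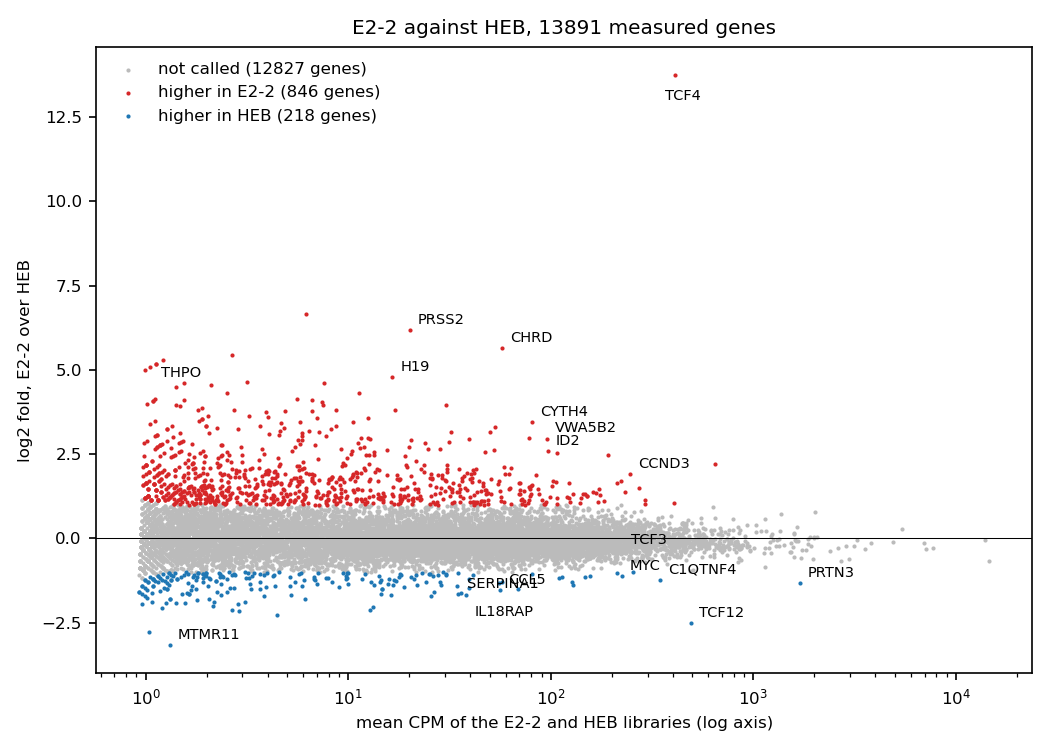
Each point is 1 of the 13891 measured genes, placed by its mean level in the E2-2 and HEB libraries in CPM (log axis) and by its log2 fold of E2-2 over HEB, with 846 genes called higher in E2-2 in red and 218 called higher in HEB in blue. The red points reach further from 0 than the blue ones, and TCF4 stands alone at the top.

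The vector library shows where these levels started. The 846 genes higher in E2-2 had a median of 1.35 CPM in vector and 3.34 in E2A, beside 2.05 in HEB and 7.06 in E2-2, the last pair being fixed by the calls. The 218 genes higher in HEB had a median of 5.06 CPM in vector and 3.28 in E2A, beside 4.41 in HEB and 1.75 in E2-2. Of the 14 genes that led the HEB side after TCF12, 10 were higher in vector than in HEB, though for SYNPO the counting interval of that difference included 1.

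The genes with the largest folds in E2-2 had few or no reads in vector cells. PRSS2, a trypsinogen gene, had 1 read in vector, 9 in HEB, 74 in E2A and 600 in E2-2, 72.7-fold (38.1 to 159.9) higher in E2-2 than in HEB. CHRD, the chordin gene, whose secreted protein blocks bone morphogenetic proteins, had 2 reads in vector, 37 in HEB, 164 in E2A and 1708 in E2-2, a difference of 50.4-fold (36.4 to 71.8). H19, an imprinted non-coding RNA, had 1 read in vector, 19 in HEB, 67 in E2A and 482 in E2-2 and differed by 27.7-fold (17.5 to 46.4). In each of these genes the order of the 4 libraries was the same, with vector lowest, then HEB, E2A and E2-2. Reads of PRSS2 may include those of its close trypsinogen copies.

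Receptors, a hormone and adaptors were among the others. THPO, the gene of thrombopoietin, had 1 read in vector, 0 in HEB, 11 in E2A and 64 in E2-2 and was at least 23.3-fold higher in E2-2. CLNK, an adaptor of immune receptor signalling, was 24.2-fold (12.9 to 51.2) higher, and the UDP-glucose receptor gene P2RY14 15.4-fold (11.9 to 20.3). P2RY14 stood at 1.03 CPM in vector, 3.69 in HEB, 16.5 in E2A and 56.8 in E2-2. The corticotropin-releasing hormone receptor gene CRHR2 differed by 19.7-fold (12.3 to 33.7) with 8 reads in vector, 18 in HEB, 27 in E2A and 325 in E2-2, so that only the E2-2 library held it above 2 CPM. SH3TC1 went against the usual order, since at 4.62 CPM in vector, 2.24 in HEB, 23.0 in E2A and 31.6 in E2-2 it was lower in HEB than in vector, and it differed by 14.1-fold (10.1 to 20.3).

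MAT1A, a gene of S-adenosylmethionine synthesis known from the liver, had 0 reads in vector, 2 in HEB, 10 in E2A and 79 in E2-2 and was 43.1-fold (11.5 to 362) higher. C10orf54, which codes for the checkpoint protein VISTA, was 17.2-fold (9.61 to 33.9) higher, and DPCR1 16.4-fold (9.59 to 30.6). PRR18 was at least 15.6-fold higher with 0 reads in both vector and HEB. GOLGA6A (2 reads in HEB and 186 in E2-2) and GOLGA6D (0 and 47) belong to a family of near-identical golgin copies on chromosome 15, so their reads cannot be assigned with certainty.

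**Figure D2:**
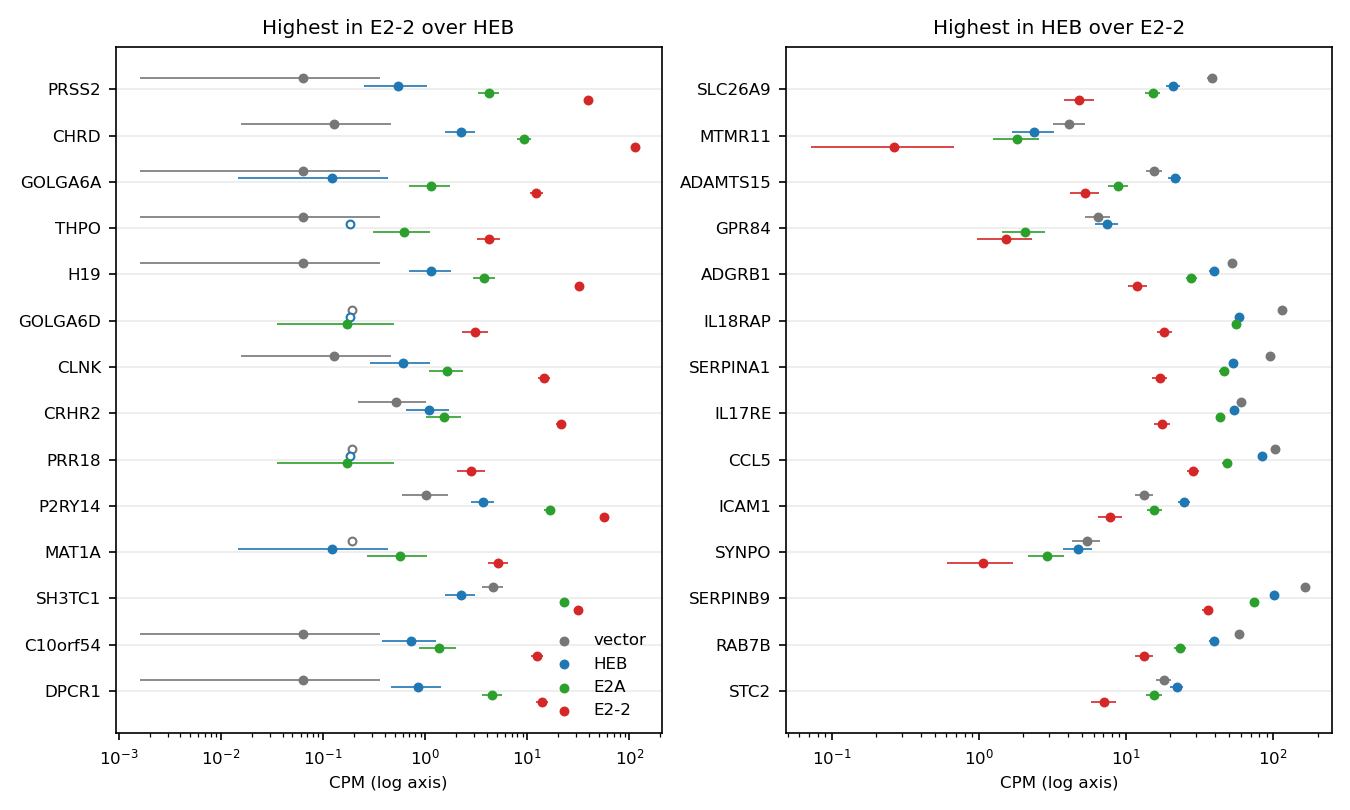
Levels in CPM (log axis) of the 14 leading genes in each direction after TCF4 and TCF12, where points are libraries and lines are 95% counting intervals, and open points at the level of 3 reads where a library had 0. On the left, E2-2 is the highest of the 4 libraries for every gene shown, and on the right it is the lowest for every gene shown, with vector or HEB highest.

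Of the genes higher in E2-2, 3 lie close together on chromosome 3, VWA5B2 (chromosome 3, 184230429 to 184242329), THPO (chromosome 3, 184371935 to 184378144) and CHRD (chromosome 3, 184380073 to 184390736). VWA5B2 stood at 0.128 CPM in vector, 21.7 in HEB, 37.1 in E2A and 169 in E2-2 and was 7.79-fold (6.97 to 8.72) higher in E2-2. VWA5B2 and ALG3 overlap at their ends, and since the strand setting of the counting is not given in the sources used here, reads there cannot be assigned. The measured genes between VWA5B2 and THPO differed by less than 1.5-fold. ALG3 was 1.48-fold, ECE2 1.24-fold, EIF4G1 1.24-fold, POLR2H 1.16-fold and PSMD2 1.13-fold higher in HEB, and FAM131A and CLCN2 were within 1.2-fold. THPO and CHRD start back to back. In RefSeq (GRCh38.p14) the 250 bases before the THPO start and the 250 bases before the CHRD start share 135 bases. It is shown here, read on the CHRD strand, because the pair differed together between E2-2 and HEB. It held 0 matches to the E-box letters CANNTG, so no letters are in capitals.
CHRD upstream region, chr3:184379804-184380053, plus strand: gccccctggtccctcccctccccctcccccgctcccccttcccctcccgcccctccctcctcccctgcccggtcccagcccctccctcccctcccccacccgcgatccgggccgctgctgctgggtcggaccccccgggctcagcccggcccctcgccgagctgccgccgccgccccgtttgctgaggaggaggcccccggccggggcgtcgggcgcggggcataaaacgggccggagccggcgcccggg
PRR18, which had 0 reads in HEB and vector, is set beside it. It was picked from the leading genes on the E2-2 side because its upstream region held the E-box CAGCTG. The 2 matches, in capitals, were thus fixed by that choice, and no other leading gene on that side that could be searched held CAGCTG.
PRR18 upstream region, chr6:166308393-166308642, minus strand: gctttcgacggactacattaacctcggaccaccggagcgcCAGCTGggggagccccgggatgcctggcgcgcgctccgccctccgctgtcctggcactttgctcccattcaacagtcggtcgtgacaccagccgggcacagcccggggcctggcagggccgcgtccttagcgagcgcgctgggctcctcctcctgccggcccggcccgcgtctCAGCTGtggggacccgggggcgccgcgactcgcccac

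E-boxes were then counted in the 250 bases before the start of all 9471 measured genes with a RefSeq promoter entry (GRCh38.p14). The letters CANNTG read the same on both strands in form, and CAGCTG and CAGGTG (with its reverse complement CACCTG) are 2 of its variants. CAGCTG was present in 20.8% of the 505 windows of genes called higher in E2-2, in 10.0% of the 120 windows of genes called higher in HEB and in 12.7% of all windows. CAGGTG or CACCTG was present in 23.0%, 20.8% and 15.8%, and CANNTG in 61.0%, 58.3% and 53.2%. The G and C content was 65.0% in the windows of genes higher in E2-2, 61.4% in those of genes higher in HEB and 64.2% in all, and its part in these shares was not tested. A match is a string of letters, not a site known to be bound.

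The genes that stood highest in HEB had smaller folds and were expressed in vector cells. SLC26A9, an anion transporter gene, was at 38.3 CPM in vector, 20.9 in HEB, 15.2 in E2A and 4.81 in E2-2, 4.34-fold (3.37 to 5.67) higher in HEB than in E2-2. MTMR11, a myotubularin-related gene, had 64 reads in vector, 39 in HEB, 32 in E2A and 4 in E2-2 and differed by 8.94-fold (3.22 to 34.4). SERPINA1, the gene of alpha-1 antitrypsin, was at 94.9 CPM in vector, 53.1 in HEB, 45.9 in E2A and 16.9 in E2-2, with HEB and E2A close to each other and E2-2 lowest. It differed by 3.15-fold (2.73 to 3.63). SERPINB9, which codes for an inhibitor of granzyme B, was at 163 CPM in vector, 102 in HEB, 74.1 in E2A and 35.9 in E2-2 and differed by 2.84-fold (2.57 to 3.13).

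Of the 14 genes, 4 were highest in HEB among all 4 libraries. ICAM1, an adhesion receptor for leukocyte integrins, stood at 13.3 CPM in vector, 24.8 in HEB, 15.6 in E2A and 7.78 in E2-2, 3.18-fold (2.59 to 3.94) higher in HEB than in E2-2. The metalloprotease gene ADAMTS15 was at 15.5 CPM in vector, 21.3 in HEB, 8.83 in E2A and 5.21 in E2-2 and differed by 4.09-fold (3.20 to 5.30), and the stanniocalcin gene STC2 at 18.0 CPM in vector, 22.0 in HEB, 15.5 in E2A and 7.06 in E2-2 by 3.12-fold (2.51 to 3.90). GPR84, a receptor for medium-chain fatty acids, was at 6.41 CPM in vector, 7.37 in HEB, 2.04 in E2A and 1.52 in E2-2. It was 4.86-fold (3.10 to 7.96) higher in HEB than in E2-2. Its interval of HEB over vector, 0.876 to 1.51, included 1, so those 2 libraries cannot be ranked for it. The others were ADGRB1 (3.30-fold), IL18RAP (3.20-fold), IL17RE (3.08-fold), CCL5 (2.91-fold), SYNPO (4.47-fold) and RAB7B (3.02-fold), and of these 6 genes each was higher in vector than in HEB. For SYNPO, with 84 reads in vector and 78 in HEB, the counting interval of that difference included 1.

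ID genes were not alike. ID2 was at 16.4 CPM in vector, 27.6 in HEB, 135 in E2A and 165 in E2-2, a log2 fold of 2.58 in favour of E2-2 over HEB, and ID3 was at 2.63 CPM in vector, 14.6 in HEB, 40.1 in E2A and 89.7 in E2-2 and 6.16-fold (5.37 to 7.09) higher. ID1 was 1.39-fold (1.19 to 1.64) higher in HEB and was not called.

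Hematopoietic cell lineage held the largest share of genes higher in E2-2 among the KEGG pathways counted. In it, 11 of 40 measured genes were called higher in E2-2 and 2 in HEB (median log2 fold 0.13), against 6.09% and 1.57% of all measured genes. In bulk RNA from sorted cells, fewer cells of a type and less RNA per cell cannot be told apart. CSF1R, a receptor kinase of macrophages, stood at 1.47 CPM in vector, 6.83 in HEB, 10.8 in E2A and 42.6 in E2-2 and was 6.24-fold (5.10 to 7.69) higher in E2-2. FLT3, a receptor kinase of progenitor and dendritic cells, stood at 4.17 CPM in vector, 12.5 in HEB, 27.7 in E2A and 45.6 in E2-2 and differed by 3.65-fold (3.12 to 4.28). The tetraspanin gene CD9 (10.0-fold, 6.68 to 15.7) and the platelet glycoprotein gene GP9 (10.0-fold, 4.31 to 28.4) also belong to this pathway, as does THPO. The genes higher in HEB were the complement receptor gene CR1 (2.62-fold, 2.25 to 3.04) and KITLG (2.63-fold, 1.14 to 6.81), the ligand of the KIT receptor.

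Of the 11 genes, 6 code for receptors of growth factors or interleukins. In Cytokine-cytokine receptor interaction, 18 of 94 measured genes were called higher in E2-2 and 6 in HEB (median log2 fold 0.10). IL6R, a chain of the interleukin 6 receptor, had 135 reads in vector, 214 in HEB, 204 in E2A and 683 in E2-2, and E2-2 alone stood apart from the other 3 libraries. IL4R, a chain of the interleukin 4 receptor, was at 62.7 CPM in vector, 84.5 in HEB, 114 in E2A and 210.4 in E2-2, in the order vector, HEB, E2A, E2-2. EPOR, the erythropoietin receptor, was 2.79-fold (2.46 to 3.18) higher in E2-2, CSF2RB, the shared chain of the receptors for interleukins 3 and 5 and for GM-CSF, 2.39-fold (2.08 to 2.74), and IL7R 6.77-fold (2.61 to 22.3), the last on 5 reads in HEB and 31 in E2-2. The genes higher in HEB included both chains of the interleukin 18 receptor, IL18RAP (3.20-fold, 2.79 to 3.67) and IL18R1 (2.15-fold, 1.75 to 2.64), which are neighbours on chromosome 2. Both were higher in vector than in HEB, with 491 reads in vector, 321 in HEB, 325 in E2A and 137 in E2-2 for IL18R1.

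Intracellular partners of these receptors differed as well. In the Jak-STAT signaling pathway, 14 of 85 measured genes were called higher in E2-2 and 1 in HEB (median log2 fold 0.14). SOCS1, a feedback inhibitor of cytokine signalling, was 3.77-fold (2.50 to 5.81) higher in E2-2, the kinase gene PIM1 2.33-fold (1.95 to 2.78) and the survival gene BCL2 2.22-fold (2.04 to 2.42). The cyclin D3 gene CCND3 had 229 reads in vector, 1708 in HEB, 4418 in E2A and 5874 in E2-2, 3.75-fold (3.56 to 3.96) higher in E2-2 than in HEB. The 1 gene higher in HEB was MYC. In Osteoclast differentiation, a pathway that shares many genes with macrophages, 14 of 91 measured genes were called higher in E2-2 and 0 in HEB (median log2 fold 0.18). Its leading members were the inhibitory receptor gene LILRB2 (25.1-fold, 9.48 to 94.1), the NADPH oxidase genes CYBB (13.6-fold, 8.04 to 24.8) and NCF1 (3.27-fold, 3.02 to 3.55), and CSF1R. NCF1 has near-identical pseudogenes that can share its reads. Counts in the neighbouring pathways were 9 and 1 of 105 for Chemokine signaling, 5 and 0 of 60 for Toll-like receptor signaling, 9 and 3 of 82 for TNF signaling and 6 and 1 of 59 for NF-kappa B signaling, higher in E2-2 and in HEB. Their shares higher in E2-2 were, in this order, 8.57%, 8.33%, 11.0% and 10.2%, beside 6.09% of all measured genes.

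**Figure D3:**
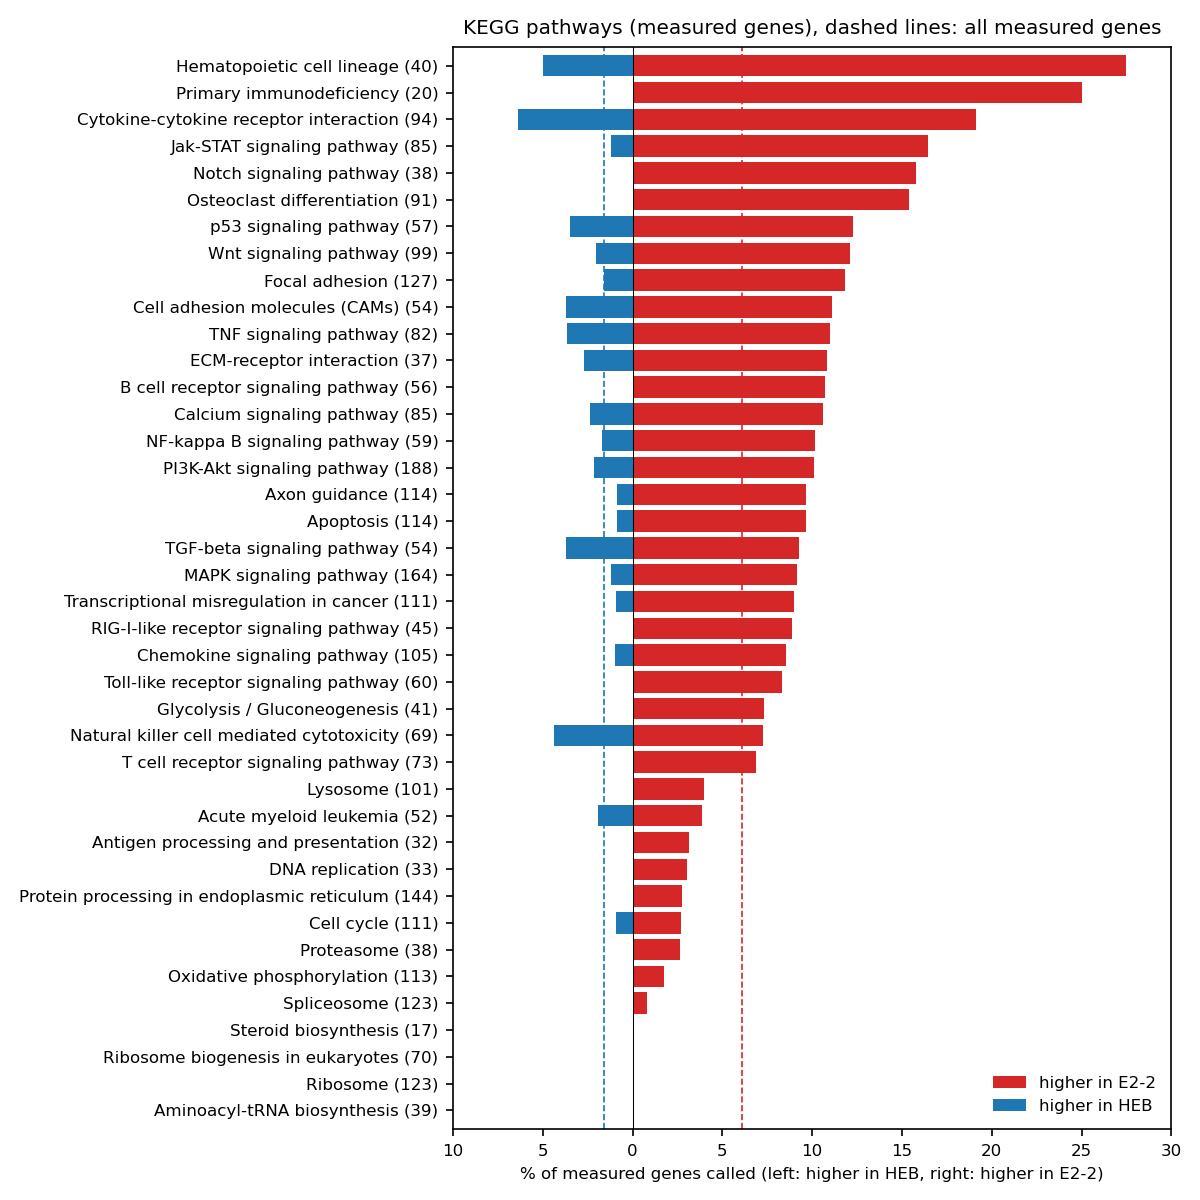
For each of 40 KEGG pathways, bars give the percentage of its measured genes called higher in E2-2 (right) and in HEB (left), with the number of measured genes in parentheses and dashed lines at 6.09% and 1.57% for all measured genes. Hematopoietic cell lineage has the longest bar to the right and Cytokine-cytokine receptor interaction the longest to the left, while 4 pathways of ribosomes, tRNA charging and sterols have none.

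Interferon-related genes formed a further group higher in E2-2. Of the GO term type I interferon signaling pathway, 17 of 57 measured genes were called higher in E2-2 and 0 in HEB (median log2 fold 0.36). RSAD2, which codes for the antiviral enzyme viperin, had 27 reads in vector, 19 in HEB, 99 in E2A and 245 in E2-2 and was 14.1-fold (8.82 to 23.8) higher in E2-2. MX1, an antiviral GTPase gene, had 3 reads in vector, 8 in HEB, 14 in E2A and 91 in E2-2 and differed by 12.4-fold (6.04 to 29.6), and OAS3, an enzyme of the 2-5A system, had 16 reads in vector, 21 in HEB, 75 in E2A and 159 in E2-2 and differed by 8.26-fold (5.22 to 13.7). In these 3 genes vector and HEB were the lowest libraries, E2A was above both and E2-2 was highest. The 5 interferon regulatory factor genes called were IRF7 (3.39-fold, 2.97 to 3.87), IRF1 (3.12-fold, 2.71 to 3.60), IRF8 (4.70-fold, 2.54 to 9.37), IRF4 (2.73-fold, 1.83 to 4.13) and IRF9 (2.84-fold, 1.76 to 4.70). IRF7, a main switch of interferon production in plasmacytoid dendritic cells, stood at 7.50 CPM in vector, 18.1 in HEB, 17.6 in E2A and 61.4 in E2-2. ISG15, a ubiquitin-like protein gene, was 2.53-fold (2.07 to 3.11) higher in E2-2, with 134 reads in vector, 139 in HEB, 188 in E2A and 322 in E2-2.

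The wider term defense response to virus had 210 measured genes, of which 23 were called higher in E2-2 and 2 in HEB (median log2 fold 0.03). In the RIG-I-like receptor signaling pathway, 4 of 45 measured genes were called higher in E2-2 and 0 in HEB, the sensor genes DDX58 (2.76-fold, 2.29 to 3.33) and IFIH1 (2.13-fold, 1.72 to 2.65) among them. In Antigen processing and presentation, 1 of 32 measured genes was called higher in E2-2 and 0 in HEB. The shares higher in E2-2 of these 3 terms were 11.0%, 8.89% and 3.13%, beside 6.09% of all measured genes. Interferon-stimulated promoters are known to hold pairs of GAAA, and the letters GAAA, any 2 bases and GAAA again, read on both strands, were present in 5 of 13 upstream windows of the called interferon genes with a RefSeq entry, 38.5%, against 2.42% of all windows. The uncalled genes of the term were not counted apart, so whether this share goes with the call or with the term was not tested. The regions of OAS3, with 2 matches, and of SOCS1, with 1, were picked for holding a match and are shown with the matches in capitals.
OAS3 upstream region, chr12:112938224-112938473, plus strand: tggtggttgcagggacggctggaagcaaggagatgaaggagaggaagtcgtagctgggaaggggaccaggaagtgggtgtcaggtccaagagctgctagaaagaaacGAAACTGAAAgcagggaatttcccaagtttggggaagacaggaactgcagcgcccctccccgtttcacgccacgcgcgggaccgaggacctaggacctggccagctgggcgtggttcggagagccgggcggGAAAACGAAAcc
SOCS1 upstream region, chr16:11256205-11256454, minus strand: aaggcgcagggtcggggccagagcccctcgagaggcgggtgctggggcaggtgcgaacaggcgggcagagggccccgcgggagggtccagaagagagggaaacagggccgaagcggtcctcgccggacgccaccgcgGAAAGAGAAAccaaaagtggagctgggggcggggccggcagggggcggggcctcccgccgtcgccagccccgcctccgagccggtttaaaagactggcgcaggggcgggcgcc

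**Figure D4:**
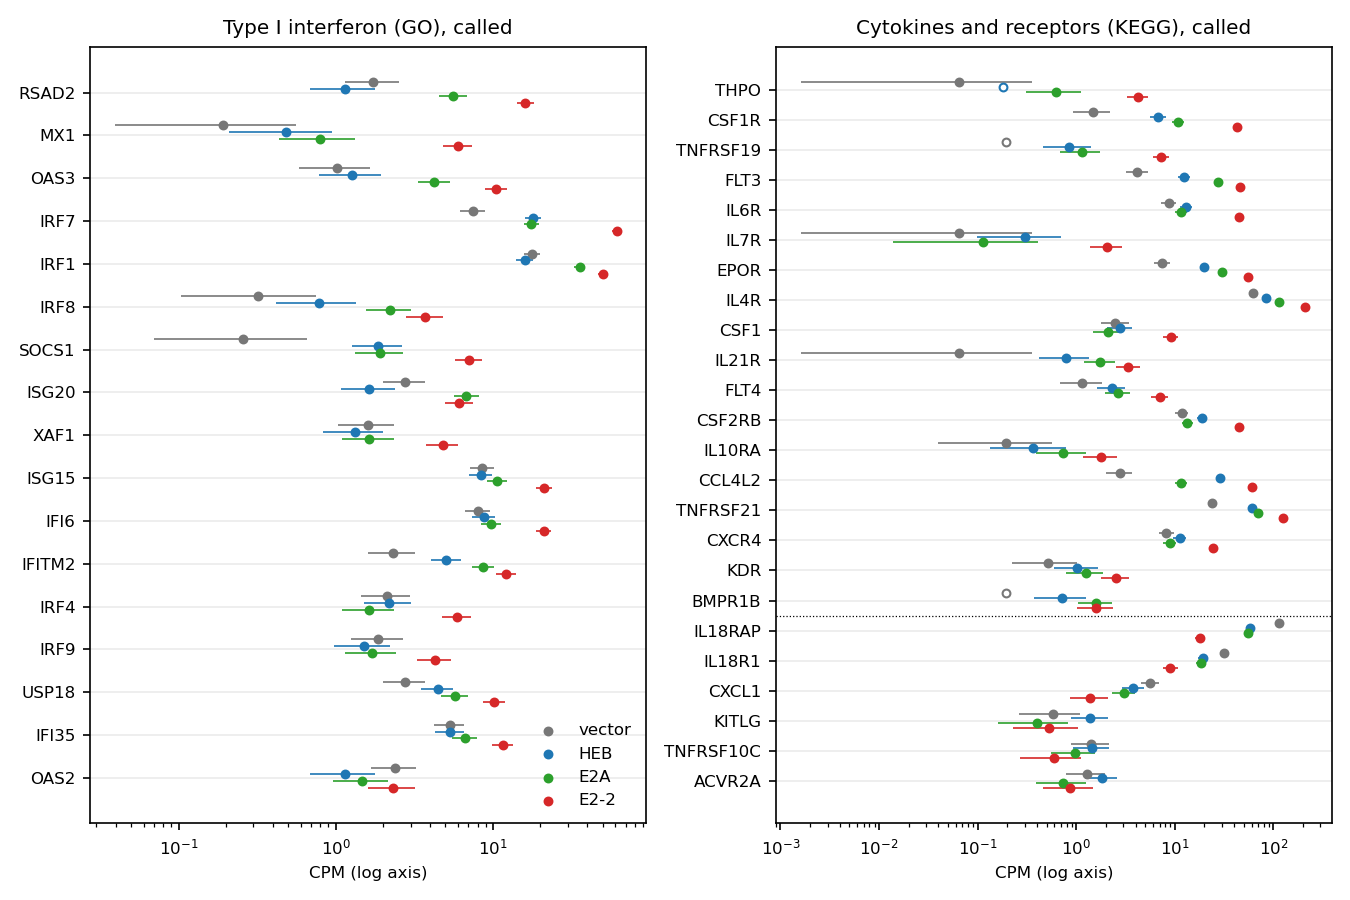
Levels in CPM (log axis) of the 17 called genes of type I interferon signaling (left) and of the 24 called genes of Cytokine-cytokine receptor interaction (right, with the 6 genes higher in HEB under the dotted line), 1 point per RNA library with 95% counting intervals, and open points at the level of 3 reads where a library had 0. HEB is near vector for RSAD2, IRF1 and ISG15, and E2-2 is the highest library for 15 of the 17 interferon genes, all but ISG20 and OAS2.

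Called lymphoid genes lay mostly on the E2-2 side, as did 79.5% of all calls, and most members of each set were not called. In Primary immunodeficiency, a KEGG set of genes whose loss impairs lymphocytes, 5 of 20 measured genes were called higher in E2-2 and 0 in HEB (median log2 fold 0.29). They were ADA (5.76-fold, 5.25 to 6.34), an enzyme of purine breakdown, CD79A (4.40-fold, 3.02 to 6.56), a chain of the B cell receptor, IL7R, the recombinase gene RAG1 (3.91-fold, 2.57 to 6.13) and IGLL1 (2.33-fold, 2.17 to 2.50), a chain of the pre-B cell receptor. ADA stood at 18.3 CPM in vector, 31.6 in HEB, 58.1 in E2A and 182 in E2-2. IGLL1 stood at 38.5 CPM in vector, 72.5 in HEB, 259 in E2A and 169 in E2-2 and was thus highest in E2A. In the GO term B cell differentiation, 15 of 70 measured genes were called higher in E2-2 and 0 in HEB (median log2 fold 0.28), and PRDM1, which encodes the plasma cell regulator BLIMP1, led it after ID2 and ADA with 2 reads in vector, 146 in HEB, 264 in E2A and 563 in E2-2 (4.21-fold, 3.50 to 5.08). T cell differentiation, an overlapping term, had 21 and 2 of 126. In the B cell and the T cell receptor signaling pathways of KEGG, 6 of 56 and 5 of 73 measured genes were higher in E2-2 and 0 in HEB. The kinase gene SYK (3.87-fold, 2.98 to 5.07) was among the first. The shares higher in E2-2 were 10.7% for the B cell and 6.85% for the T cell pathway, beside 6.09% of all measured genes.

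Marker lists of blood lineages were read for the members that were measured, and their part in the pathway differences was not tested. Of the plasmacytoid dendritic cell markers, 15 of 25 were measured, and 8 of 15 measured genes were called higher in E2-2 and 0 in HEB (median log2 fold 1.03). MZB1 (8.39-fold, 4.96 to 15.1), PLAC8 (3.50-fold, 2.97 to 4.13), TNFRSF21 (2.04-fold), NRP1 (2.75-fold, 1.91 to 4.04) and PACSIN1 (3.64-fold, 1.68 to 8.71) were called beside IRF7, IRF8 and IRF4. A marker could pass the read minimum through the higher library alone, so these counts are a description. The summed level of all 25 was 278 CPM in vector, 339 in HEB, 400.3 in E2A and 567 in E2-2. The defining markers LILRA4 and TLR7 had 0 reads in both E2-2 and HEB. Of the B lymphoid markers, 4 of 6 measured genes were called higher in E2-2 and 0 in HEB (median log2 fold 1.43), with PAX5 at 3.10-fold (2.32 to 4.19). All 16 B lymphoid markers summed to 115 CPM in vector, 151 in HEB, 318 in E2A and 252 in E2-2, highest in E2A. IGLL1 carried much of that sum, at 38.5 CPM in vector, 72.5 in HEB, 259 in E2A and 169 in E2-2. Without IGLL1 the list was not highest in E2A. Of the monocytic markers, 3 of 7 measured genes were called higher in E2-2 and 0 in HEB (median log2 fold 0.48), and of the T and NK markers, 3 of 7 measured genes were called higher in E2-2 and 0 in HEB (median log2 fold 0.45). Of the mast cell and basophil markers, 1 of 3 measured genes, CPA3, was called higher in E2-2 and 0 in HEB. The interval lay on the E2-2 side in 2 of the 3 and on the HEB side in 1. The 10 markers summed to 749 CPM in vector, 834 in HEB, 912 in E2A and 761 in E2-2, lower in E2-2 than in HEB.

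The granulocytic markers leaned toward HEB, with some members on the E2-2 side. Of the granulocytic markers, 1 of 13 measured genes was called higher in E2-2 and 2 in HEB (median log2 fold -0.41), and their summed level was 23448 CPM in HEB and 14767 in E2-2, beside 19483 in vector and 17167 in E2A. PRTN3, which codes for proteinase 3, stood at 1820.0 CPM in vector, 2422 in HEB, 1126 in E2A and 963 in E2-2, 2.52-fold (2.47 to 2.56) higher in HEB than in E2-2, with HEB above vector. RNASE2 was 2.43-fold (2.07 to 2.86) higher in HEB. MPO, the myeloperoxidase gene and one of the most abundant here, had 231819 reads in vector, 298092 in HEB, 232710 in E2A and 170661 in E2-2 and was 1.60-fold (1.59 to 1.61) higher in HEB, below the threshold. MPO alone made up most of the summed granulocytic level in each library. AZU1 was at 1.97-fold, CTSG at 1.66-fold and ELANE at 1.40-fold, all toward HEB and not called. The interval lay on the HEB side in 8 of the 13 genes and on the E2-2 side in 3, which were S100A8, S100A9 (1.56-fold) and CSF3R (1.08-fold). S100A8 was the 1 member called higher in E2-2, with 0 reads in vector, 38 in HEB, 39 in E2A and 145 in E2-2 (4.16-fold, 2.90 to 6.12). Of the erythroid and megakaryocytic markers, 2 of 7 measured genes were called higher in E2-2 and 1 in HEB (median log2 fold -0.51). The erythroid factor gene KLF1 was 3.04-fold (1.80 to 5.38) higher in HEB, and HBA1, HBB, HBG1 and PPBP had 0 reads in all 4 libraries.

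In the Notch signaling pathway, 6 of 38 measured genes were called higher in E2-2 and 0 in HEB (median log2 fold 0.05). They were the ligand genes JAG2 (2.69-fold, 2.16 to 3.38) and DLL4 (2.59-fold, 1.96 to 3.45), the receptor gene NOTCH3 (2.39-fold, 1.64 to 3.53), the glycosyltransferase gene LFNG (3.39-fold, 2.61 to 4.44), which modifies Notch receptors, DTX4 (3.22-fold, 2.59 to 4.04) and the target gene HES1 (3.21-fold, 2.17 to 4.86). LFNG stood at 0.705 CPM in vector, 4.65 in HEB, 3.17 in E2A and 15.8 in E2-2, and DLL4 at 0.128 CPM in vector, 4.41 in HEB, 2.26 in E2A and 11.4 in E2-2, so both were higher in HEB than in E2A. The Wnt pathway had 12 and 2 of 99 called and the TGF-beta pathway 5 and 2 of 54, CHRD and ID2 among the latter. The TGF-beta genes were evenly split, with 27 folds on each side and intervals on the HEB side in 23 genes and on the E2-2 side in 15. In the MAPK signaling pathway, 15 of 164 measured genes were called higher in E2-2 and 2 in HEB (median log2 fold 0.02), with the growth factor receptor gene FGFR3 at 6.57-fold (5.23 to 8.34). The AP-1 genes JUN (2.51-fold, 2.31 to 2.73), FOS (2.47-fold, 1.75 to 3.53) and FOSB (2.76-fold, 2.11 to 3.66) were called, and FOS with 75 reads in vector, 49 in HEB, 36 in E2A and 111 in E2-2 and FOSB with 136 reads in vector, 75 in HEB, 77 in E2A and 190 in E2-2 were lower in HEB than in vector. PI3K-Akt signaling had 19 and 4 of 188. In it, the insulin receptor substrate gene IRS1 had 4 reads in vector, 18 in HEB, 57 in E2A and 196 in E2-2 and differed by 11.9-fold (7.32 to 20.5). The shares higher in E2-2 were 12.1% for Wnt, 9.26% for TGF-beta, 9.15% for MAPK and 10.1% for PI3K-Akt, beside 6.09% of all measured genes.

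Called cell division genes lay on both sides. In Cell cycle, 3 of 111 measured genes were called higher in E2-2 and 1 in HEB (median log2 fold 0.03), the genes being CCND3, the inhibitor genes CDKN2D (2.44-fold, 1.84 to 3.27) and CDKN1A (2.15-fold, 1.95 to 2.38), and MYC. The D cyclin gene CCND2 was 1.97-fold higher in E2-2 and was not called. The summed level of the 111 genes was 18189 CPM in HEB and 18288 in E2-2. The interval lay on the HEB side in 35 of them and on the E2-2 side in 45, so differences went both ways. In DNA replication, 1 of 33 measured genes was called higher in E2-2 and 0 in HEB (median log2 fold -0.10). In the p53 signaling pathway, 7 of 57 measured genes were called higher in E2-2 and 2 in HEB (median log2 fold 0.08): CD82 (5.88-fold, 5.10 to 6.80), THBS1 (4.17-fold, 3.29 to 5.33) and the death-promoting gene PMAIP1 (2.17-fold, 2.05 to 2.29) were higher in E2-2, and ADGRB1 and the stress sensor gene SESN2 (2.11-fold, 1.83 to 2.45) in HEB. In Apoptosis, 11 of 114 measured genes were called higher in E2-2 and 1 in HEB (median log2 fold -0.01). The shares higher in E2-2 were 2.70% for Cell cycle, 3.03% for DNA replication, 12.3% for p53 signaling and 9.65% for Apoptosis. For all measured genes the share was 6.09%. It fell from 12.0% below 10 CPM to 1.36% at 100 CPM or more, and the pathway shares were not matched for level. BTG2, an antiproliferative gene outside these KEGG sets, had 22 reads in vector, 51 in HEB, 78 in E2A and 267 in E2-2 and was 5.71-fold (4.22 to 7.87) higher in E2-2.

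Genes of tRNA charging and of the ribosome showed small shifts toward HEB, mostly below the threshold. The wide GO term translation had 15 genes called higher in E2-2 and 3 in HEB among 588, with a median log2 fold of -0.17, and its interval lay on the HEB side in 325 genes and on the E2-2 side in 80. In Aminoacyl-tRNA biosynthesis, which charges tRNAs with amino acids, 0 of 39 measured genes were called higher in E2-2 and 0 in HEB (median log2 fold -0.40). The fold lay on the HEB side in 36 of the 39, against 52.8% of all measured genes. The counting interval excluded 1 on that side in 31, 79.5%, against 28.8% of all. An interval excludes 1 more easily where a gene has more reads. The 28.8% is not matched for level, here or for the ribosome genes below. The 4 lowest in E2-2, named for their values, were NARS2 (1.79-fold), LARS (1.60-fold), EARS2 (1.58-fold) and GATB (1.55-fold). The summed level of the 39 genes was 4342 CPM in vector, 4626 in HEB, 3882 in E2A and 3483 in E2-2.

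Ribosome production leaned the same way. In Ribosome biogenesis in eukaryotes, 0 of 70 measured genes were called higher in E2-2 and 0 in HEB (median log2 fold -0.28), and the interval lay on the HEB side in 45 genes, 64.3%. In Ribosome, 0 of 123 measured genes were called higher in E2-2 and 0 in HEB (median log2 fold -0.18), and the interval lay on the HEB side in 80 genes, 65.0%. The summed level of the 123 Ribosome genes was 44114 CPM in vector, 39660 in HEB, 42514 in E2A and 33994 in E2-2, so HEB stood below vector and E2A there. RPS10 (1.83-fold, 1.05 to 3.31) and MRPL4 (1.56-fold, 1.35 to 1.81) were lowest, and RPS27L was 1.45-fold (1.19 to 1.77) higher in E2-2. The interval of RPS10 was the widest of these and came close to 1. Many ribosomal protein genes have processed pseudogenes that can share reads. The GO term mitochondrial translation had 0 calls among 112 genes and a median log2 fold of -0.22, and rRNA processing 1 call among 151, ISG20, with a median of -0.24.

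MYC, a transcription factor gene of cell growth, stood at 329.5 CPM in vector, 306 in HEB, 250.4 in E2A and 142 in E2-2, 2.16-fold (2.05 to 2.27) higher in HEB than in E2-2, with vector and HEB close together. TERT, the telomerase gene, was 2.32-fold (1.91 to 2.83) higher in HEB. In Steroid biosynthesis, the sterol-making route, 0 of 17 measured genes were called higher in E2-2 and 0 in HEB (median log2 fold -0.38), and 16 of the 17 lay on the HEB side, DHCR7 (1.77-fold) among the lowest in E2-2. In Glycine, serine and threonine metabolism, 0 of 24 measured genes were called higher in E2-2 and 2 in HEB (median log2 fold -0.33). SDSL (2.84-fold, 1.36 to 6.50) and AOC2 (2.72-fold, 1.81 to 4.20) were called, and the serine synthesis gene PSPH lay just under the threshold at 1.99-fold. TRIB3, a stress-induced pseudokinase gene, stood at 61.0 CPM in vector, 81.7 in HEB, 47.9 in E2A and 33.2 in E2-2, 2.46-fold (2.22 to 2.73) higher in HEB. By contrast Spliceosome (1 and 0 of 123), Proteasome (1 and 0 of 38), Oxidative phosphorylation (2 and 0 of 113) and Lysosome (4 and 0 of 101) had medians between -0.08 and -0.01.

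**Figure D5:**
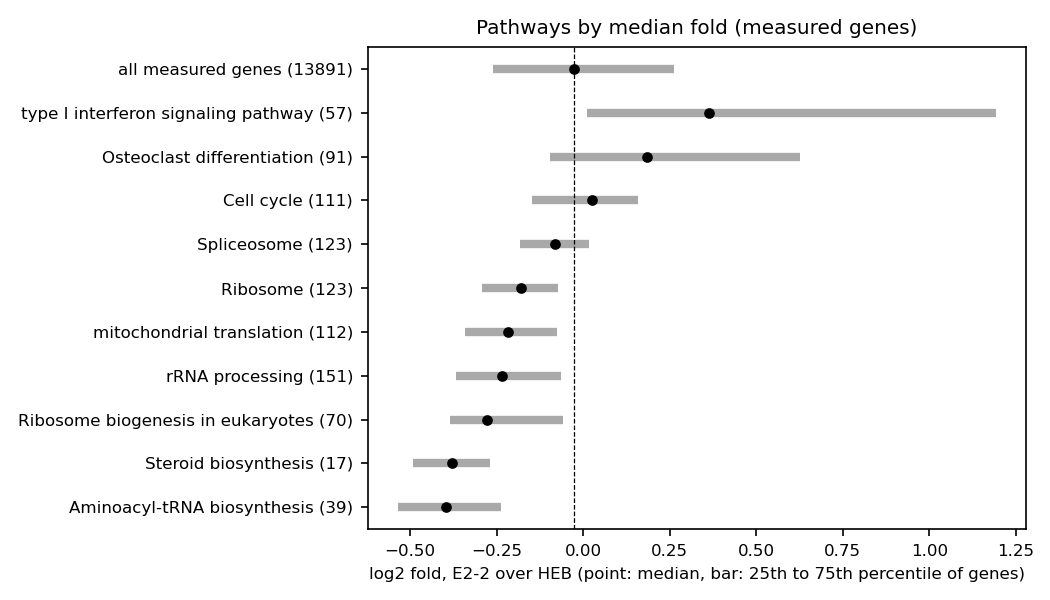
Points give the median log2 fold of E2-2 over HEB for 10 pathways and for all 13891 measured genes, and bars the 25th to 75th percentile of their genes. Type I interferon signaling lies highest at 0.36, and tRNA charging (-0.40), sterol synthesis (-0.38) and ribosome biogenesis (-0.28) lie lowest, beside -0.03 for all measured genes.

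The remaining pathways with the largest shares of calls, chosen here for those shares, drew on a few genes each. In Pancreatic secretion, 10 of 45 measured genes were called higher in E2-2 and 1 in HEB, led by CPA3 (5.41-fold, 4.35 to 6.79), a protease gene of mast cells, which was highest in E2A with 1 read in vector, 98 in HEB, 758 in E2A and 486 in E2-2. Protein digestion and absorption had 6 and 0 of 31, CPA3 again and the collagen gene COL9A3 (4.65-fold, 3.04 to 7.35) among them. Complement and coagulation cascades had calls on both sides, 6 and 4 of 30. The thrombin receptor genes F2RL3 (11.6-fold, 4.66 to 37.1) and THBD (2.28-fold, 1.93 to 2.69) were higher in E2-2, and SERPINA1, CR1, the integrin gene ITGAX (3.18-fold) and CLU (2.42-fold, 1.17 to 5.36) in HEB. Neuroactive ligand-receptor interaction had 10 and 7 of 72, CRHR2 and P2RY14 on the E2-2 side and the lipid receptor gene S1PR2 (3.29-fold, 2.13 to 5.25) on the HEB side. Olfactory transduction had 4 and 0 of 19 and Collecting duct acid secretion 3 and 0 of 17, the latter with proton pump and anion exchanger genes.

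The pathways with the largest shares in HEB rested on 1 to 7 called genes. Malaria had 3 genes higher in HEB and 1 in E2-2, and Staphylococcus aureus infection 2 and 0, ICAM1 in both, with CR1 and THBS2 (2.12-fold, 1.46 to 3.12) in the first and the formyl peptide receptor gene FPR2 (2.09-fold, 1.39 to 3.18) in the second. In Amoebiasis, 4 of 49 were higher in HEB and 3 in E2-2, SERPINB9 and the chemokine gene CXCL1 (2.75-fold, 1.65 to 4.74) among the former. Inflammatory bowel disease had 3 of 23 genes higher in E2-2, with IL4R and JUN, and 2 in HEB, the interleukin 18 receptor genes (median log2 fold 0.19). Retinol metabolism had 1 gene on each side of 15, DHRS9 (2.56-fold) being higher in HEB.

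Among GO terms with 15 to 400 measured genes, the highest shares in E2-2 fell to vascular endothelial growth factor signaling (8 of 17, TCF4 itself among them), regulation of oligodendrocyte differentiation (7 of 15), positive regulation of skeletal muscle tissue development (6 of 15), cellular response to vascular endothelial growth factor stimulus (11 of 30) and neuron fate commitment (8 of 22). These lists overlap, ID2 and HES1 for example being in both the oligodendrocyte and the neuron term. Extracellular matrix structural constituent had 7 of 20, with the fibrillin genes FBN3 (7.92-fold, 5.74 to 11.2) and FBN1 (3.42-fold, 2.71 to 4.35). By location, external side of plasma membrane had 15 and 2 of 100 and a median log2 fold of 0.22. Plasma membrane had 240 and 57 of 2386, and extracellular space 65 and 17 of 516. Mitochondrion had 53 and 10 of 1362 and nucleolus 8 and 3 of 736. The shares higher in E2-2 were 10.1% for plasma membrane, 12.6% for extracellular space, 3.89% for mitochondrion and 1.09% for nucleolus. For all measured genes the share was 6.09%. Calls were rarer among genes of higher level, and the location shares were not matched for level. G-protein coupled receptor activity had 23 and 11 of 143, on both sides. For GO terms, the highest shares in HEB rested on 2 or 3 genes each, such as cellular response to alkaloid (3 of 20: CCL5, ICAM1 and the steroid transport gene STAR at 2.69-fold).

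The lists of epithelial, fibroblast or packaging cell, histone, mitochondrially encoded and housekeeping genes had 0 calls. Of 14 epithelial, fibroblast or packaging cell genes, 2 were measured, and the summed level of the 14 was 43.7 CPM in HEB and 44.2 in E2-2. The 15 mitochondrially encoded genes had a median log2 fold of -0.05 and summed to 55418 CPM in HEB and 52122 in E2-2, with the interval on the HEB side in 9 and on the E2-2 side in 5. The 16 housekeeping genes had a median of -0.12 and summed to 23201 CPM in HEB and 20239 in E2-2, also with 9 on the HEB side and 5 on the E2-2 side, so small shifts toward HEB were not limited to ribosome and tRNA genes. The 4 measured histone genes had a median of 0.01.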

How the data were processed

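RNA from sorted GFP+ Kasumi-1 cells was made into TruSeq libraries and sequenced on a HiSeq2500, per the labels' protocols, with 1 library each for E2-2, HEB, E2A and vector. The authors deposited 1 table with raw read counts and FPKM values per Ensembl gene, per the file headers, together with KEGG and GO terms. Tools listed in the submitters' processing notes, with no step attached, were HTSeq 0.9.1, TopHat2 2.0.9, MACS2 2.1.1.20160309 and Bowtie2 2.2.9, and the builds listed were hg19 and hg38. Annotation, strand setting and read length were not given in the sources used here, so overlapping and antisense genes cannot be told apart. Counted reads came to 14816708 in the E2-2 library, 17673090 in E2A, 16791922 in HEB and 15728974 in vector, and a floor of 3 reads stood for 0.170 to 0.198 CPM. Gene positions are those of RefSeq (GRCh38.p14) or of the deposited table, and are 1-based.

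From the deposited counts, TMM factors were computed over the 4 RNA libraries with edgeR 4.0.16 in R 4.3.3, and folds with exact conditional binomial (Clopper-Pearson) intervals with scipy 1.17.1. The edgeR quasi-likelihood test could not be fitted with 1 library per group. The intervals cover counting error only, since the reads carry no molecular identifiers that the sources used here describe. At this depth a difference of 2-fold had an interval excluding 1 from 38 summed reads on. The script was tested on simulated data.

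Members and lists were chosen with earlier results of these data known. Genes were named as follows: the E protein and ID genes, the 15 called genes highest on each side by the interval bound nearest to no difference, and up to 4 called genes per direction in each pathway or marker list named. Named outside that rule, after their values were seen, were the chromosome 3 neighbours (VWA5B2, ALG3, ECE2, EIF4G1, PSMD2, POLR2H, FAM131A and CLCN2), the granulocytic genes MPO, AZU1, CTSG, ELANE, S100A9 and CSF3R, the protein and sterol synthesis genes NARS2, LARS, EARS2, GATB, RPS10, MRPL4, RPS27L, DHCR7 and PSPH, and IRF1, IRF9, SOCS1, DLL4, NOTCH3, NRP1, PACSIN1 and CCND2, and the neighbouring genes of the closing observations. Pathways were counted where 15 to 400 genes were measured, apart from listed terms outside that range, such as the location terms and translation. The 8 KEGG and 8 GO terms with the highest share of calls in each direction were added from their values. Alternatives were scaling by total counts, DESeq2 1.42.0 size factors, TMM over the 2 libraries alone, a minimum of 100 reads, no read filter, the FPKM values as deposited by the authors, and, chosen after seeing the data, RefSeq protein-coding genes only. The ChIP-seq libraries were not analysed here.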

Additional observations from a re-analysis of the deposited data

How the results depend on the processing

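The counts of genes higher in E2-2 and in HEB were 904 and 182 with scaling by total counts, 857 and 208 with DESeq2 size factors, 849 and 216 with TMM over the 2 libraries alone, 914 and 190 from the deposited FPKM, and 1225 and 322 without a read filter. A minimum of 100 reads left 497 and 109, all of them among the 846 and 218, because fewer genes were tested. Among RefSeq protein-coding genes, an alternative chosen after seeing the data, the counts were 645 and 149. E2-2 held between 79.2% and 83.2% of the calls under these settings. The median of all measured genes was -0.03 and became 0.03 with total counts, and no named gene reversed. Of 901 pathway and list medians recomputed, 35 moved by 0.1 or more, and of 1802 counts, 91 moved by over 1.5 times. Of 1065 named gene values, 4 fell outside their counting interval, TRH and PRTN3 under total counts and under FPKM. The calls of SH2B2, PEX11A, RND2, PARVB and BMX, all higher in HEB, were lost under total counts or FPKM, where they fell just under 2-fold, and that of PARVB also under DESeq2 size factors and under TMM over the 2 libraries. Among 3559 genes with 1000 or more reads in both libraries, FPKM per read differed between the libraries by one ratio, so FPKM folds there follow total counts. FPKM calls used the fold alone, with no counting interval. With total counts the median of Aminoacyl-tRNA biosynthesis was -0.34. No paired analysis was possible because each group is 1 library. In the 2 libraries 14054 genes had 1 to 29 reads and were not measured.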

Other observations

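Called genes also stood next to each other along chromosomes. There were 28 runs of at least 3 neighbouring measured genes called in the same direction, and their number was not compared with any expectation. On chromosome 22, LRRC75B, GGT1, BCRP3, LL22NC03-N95F10.1, PIWIL3 and KIAA1671 were all higher in E2-2. On the X chromosome, 5 genes of the RHOXF homeobox cluster were higher in E2-2, a family whose copies can share reads. On chromosome 16, the metallothionein genes MT1M, MT1G and MT1X, which code for metal-binding proteins, were higher in E2-2: MT1G stood at 1.47 CPM in vector, 2.54 in HEB, 3.45 in E2A and 15.9 in E2-2 (6.26-fold, 4.50 to 8.91). NRIR, CMPK2 and RSAD2 on chromosome 2 and OAS3, OAS2 and RASAL1 on chromosome 12 were further runs higher in E2-2. CMPK2, a mitochondrial nucleotide kinase gene, had 92 reads in vector, 128 in HEB, 240 in E2A and 745 in E2-2 (6.35-fold, 5.26 to 7.72). On the HEB side, IL18R1 and IL18RAP lay in a run of 4 with AC007278.2 and AC007278.3. Since the strand setting is not given in the sources used here, overlapping genes in a run can share reads.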
